A study of Homo sapiens with 6 samples.

Results

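The actin cytoskeleton and SRF target genes are a set of 40 genes that build, cross-link, anchor and turn over actin filaments, together with SRF itself. They were taken by exact match of their symbols among the 43424 gene symbols of the count tables, where each of the 40 was found once. All 40 passed the filter on low counts, as did 13198 genes in all.

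RNA was counted in HepG2, a human liver cancer cell line that keeps many hepatocyte traits and that the labels give as WT. The 3 control libraries have the treatment None in the labels, with no vehicle named. The 3 tamarixetin libraries came from cells given 10 µM tamarixetin, a methylated relative of the flavonol quercetin, for 24 h. Per the labels' protocols, culture medium held 10% fetal bovine serum and tamarixetin was applied with 1%. What the control cells had during those 24 h is not stated.

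Cells change shape, stick and contract through filaments of actin, which grow from actin monomers and are cut back by cofilin. Profilin and thymosin bind the monomers. SRF, the serum response factor, is a transcription factor that binds the CArG box in DNA. Its partners of the MRTF family are held in the cytoplasm by free actin monomers and enter the nucleus when monomers are drawn into filaments, so that many genes for filament proteins are read out with the state of the filaments themselves. A second set of partners, the TCF proteins such as ELK1 and ELK4, links SRF to early genes under growth factor signals. Serum is the classic inducer of this system, so a serum difference and the compound cannot be told apart in any result here.

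Tamarixetin libraries held more RNA of this set. Of the 40 genes 26 rose, 3 fell and 11 did not pass the test (edgeR's quasi-likelihood test, Benjamini-Hochberg adjusted p under 0.05). Among all 13198 genes tested, 43.7% were called, 22.4% higher and 21.3% lower, against 65% higher and 7.5% lower among the 40. The 40 were chosen with earlier results of these data known, so these shares describe the set and do not test it. The median log2 fold change was 0.27 in the set and 0.00038 over all genes. At a fold of at least 1.5, 12 of the 40 were higher and 1 was lower, beside 7.27% and 6.97% of all genes. The 3 tamarixetin libraries lay wholly above the 3 controls in 26 of the 40 and wholly below in 3. Over all genes these shares were 26% and 24.5%, or 50.5% in either direction. As a share of all counts, the 40 genes together went from 1.37% ± 0.0232 in control to 1.82% ± 0.0105 with tamarixetin (SD over 3 libraries per group). ACTB and ACTG1 alone took 0.485% ± 0.0192 and 0.715% ± 0.0147.

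Total counts ran from 11980585 to 16168855 per library, and no library stood apart. The labels call the samples of a group biological replicates without saying more, so the p-values measure the spread between these cultures. The sum of 10 hepatocyte and HepG2 markers, among them ALB and AFP, was 18895 to 19460 CPM (counts scaled to 1e6 per library, with TMM factors) in control and 10736 to 11038 CPM in tamarixetin libraries, and all 10 fell. The sum of 12 markers of stromal, muscle and endothelial cells, cells that are rich in several proteins of this set, was 41.6 to 47.2 CPM in control and 38.7 to 42.3 CPM with tamarixetin. Of these, 7 were tested, COL1A1 (-0.28) and PDGFRB (-0.84) fell and none rose, and the muscle filament gene DES was at 0 in every library. Leukocyte markers summed to 13.5 to 15.8 and 13.5 to 16.0 CPM, with CD14 lower and CD3E at 0. The part of the hepatocyte markers' fall in the results was not tested. In such bulk RNA, a change in the share of cells of a type and a change in RNA per cell cannot be told apart.

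CArG boxes were searched on both strands from 250 bases before to 50 bases after the start sites listed for each gene in RefSeq (GRCh38.p14). Sequence of this window was at hand for 37 of the 40 genes. It was missing for ACTB, MYL9 and TAGLN, which RefSeq does hold and which rose. They were not searched and stand in no group by box below. A box was found in 7 of the 37, a share of 18.9%, and in 1.56% of the 10357 tested genes that had such a window. The set was chosen in part as SRF targets, so a larger share than among all genes is partly built into the choice. The 7 are ACTG1, ACTN1, FLNA, TPM4, CNN2, FHL2 and SRF, and the boxes began 10 to 173 bases before the start site. They are shown because all 7 of these genes rose, with the box in capitals and the sequence on the gene's own strand, 5′ to 3′.
ACTG1 (chr17:81512874-81512903, minus): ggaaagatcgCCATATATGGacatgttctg
ACTN1 (chr14:68977718-68977747, minus): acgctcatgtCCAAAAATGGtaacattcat
FLNA (chrX:154374709-154374738, minus): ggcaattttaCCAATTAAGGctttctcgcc
TPM4 (chr19:16067355-16067384, plus): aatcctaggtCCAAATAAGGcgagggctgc
CNN2 (chr19:1026509-1026538, plus): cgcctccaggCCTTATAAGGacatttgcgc
FHL2, outer start (chr2:105438595-105438624, minus): aatctggagaCCTTAAAAGGcacgtgggag
FHL2, inner start (chr2:105399091-105399120, minus): gcgtgcatctCCTTATATGGtcaaatgaca
SRF (chr6:43171229-43171268, plus): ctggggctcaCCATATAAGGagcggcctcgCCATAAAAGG

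The stretches of TPM4, CNN2 and SRF and that of the outer FHL2 start lie before the gene and touch no exon in GENCODE release 29. The ACTN1 stretch lies inside the span of the gene, before an inner start site, and touches no exon. The ACTG1 stretch reaches into an annotated ACTG1 exon, the inner FHL2 stretch lies in an FHL2 exon, and the FLNA stretch meets an antisense transcript. SRF carries a pair of boxes just before its own start site. All 7 genes with a box rose, with a median log2 fold change of 0.70. Of the 30 without a box 16 rose, 3 fell and 11 were not called, with a median of 0.15. Among all genes tested, 22.4% were higher and 21.3% lower. Of 155 tested genes with a box outside the set, 33.5% were higher and 21.9% lower, with a median of 0.038. The set was chosen in part as SRF targets and with earlier results known, so its counts by box are no test. FHL2 had 4 different windows, which gives a gene more room for a match. A box in the window is a match of letters, and its use in these cells was not measured.

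**Figure D1:**
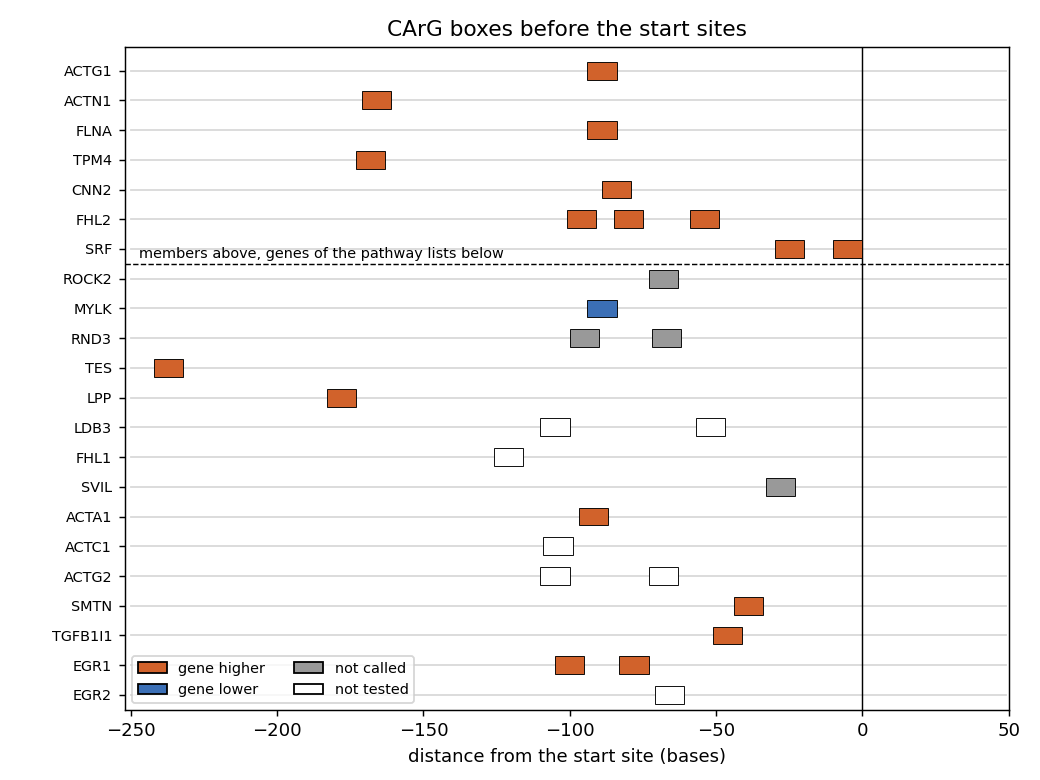
Position of CArG boxes relative to the start site (horizontal axis, bases, from 250 before to 50 after) for each gene with a box among the 40 genes (above the dashed line) and in the other lists of the pathway (below it); a box can appear more than once where a gene has several start sites. All 7 genes above the line are marked as higher, and below it 6 are higher, 1 is lower, 3 are not called and 5 were not tested.

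SRF (chromosome 6, 43171269 to 43181506) rose 1.44-fold. Its level was 304, 313 and 296 CPM in the control libraries and 459, 441 and 414 CPM in the tamarixetin libraries. The lowest tamarixetin library stood well above the highest control, and the log2 fold change was 0.53 (SE 0.0378, adjusted p = 3.60e-23, edgeR with Benjamini-Hochberg adjustment). SRF is known as a target of its own protein.

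Both cytoplasmic actins rose, with the larger fold change in the gamma form. ACTG1, gamma actin (chromosome 17, 81509971 to 81512799), was counted at 3829, 4101 and 4081 CPM in control and 6082, 5928 and 5822 CPM in tamarixetin libraries. This 1.48-fold rise (log2 0.57, SE 0.0271) had the most counts behind it of any gene in the set. ACTB, beta actin (chromosome 7, 5527148 to 5530601), stood at 873, 942 and 911 CPM in control and 1165, 1107 and 1119 CPM with tamarixetin, a 1.24-fold rise (log2 0.32, SE 0.0321). ACTB is often used as a reference gene, and here its control and tamarixetin libraries did not overlap. Tested against a fold of 1.2 in place of no change, ACTB no longer passed (adjusted p = 0.0718, edgeR with Benjamini-Hochberg adjustment).

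The ratio of ACTB to ACTG1 counts within a library does not depend on the scaling between libraries. It was 0.228, 0.23 and 0.223 in control and 0.191, 0.187 and 0.192 in tamarixetin libraries. All tamarixetin libraries were below all controls, a log2 difference of -0.26. Libraries of this kind count about 1 fragment per transcript, from the 3′ end, whatever the length of the transcript, but reads from stretches that both actins or their processed copies share can be lost or split. The 4 ACTG1 pseudogenes named after it in the tables held 445 counts over the 6 libraries, beside 417030 for ACTG1.

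The 3 crosslinkers all rose, by unlike amounts, beside 22.4% higher among all genes tested. ACTN1, the alpha-actinin of stress fibres and focal adhesions (chromosome 14, 68874128 to 68979302), nearly doubled, from 393, 406 and 383 CPM in control to 745, 754 and 736 CPM with tamarixetin. The log2 fold change was 0.92 (SE 0.0344, edgeR adjusted p = 1.01e-43). The spread within each group was a small part of the gap between them. FLNA, filamin A, which ties filaments into a loose net and to the membrane, went from 292, 289 and 311 CPM to 490, 524 and 546 CPM (log2 0.81, SE 0.0377). ACTN4, the other non-muscle alpha-actinin, rose by a mere 0.15 (SE 0.0308), from 1067 ± 9.60 to 1183 ± 16.1 CPM (SD, n = 3 each, as for all such values). The count ratio of ACTN1 to ACTN4 was 0.368, 0.385 and 0.356 in control and 0.622, 0.635 and 0.631 in tamarixetin libraries, so the more abundant partner of the pair in control cells gained the less.

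**Figure D2:**
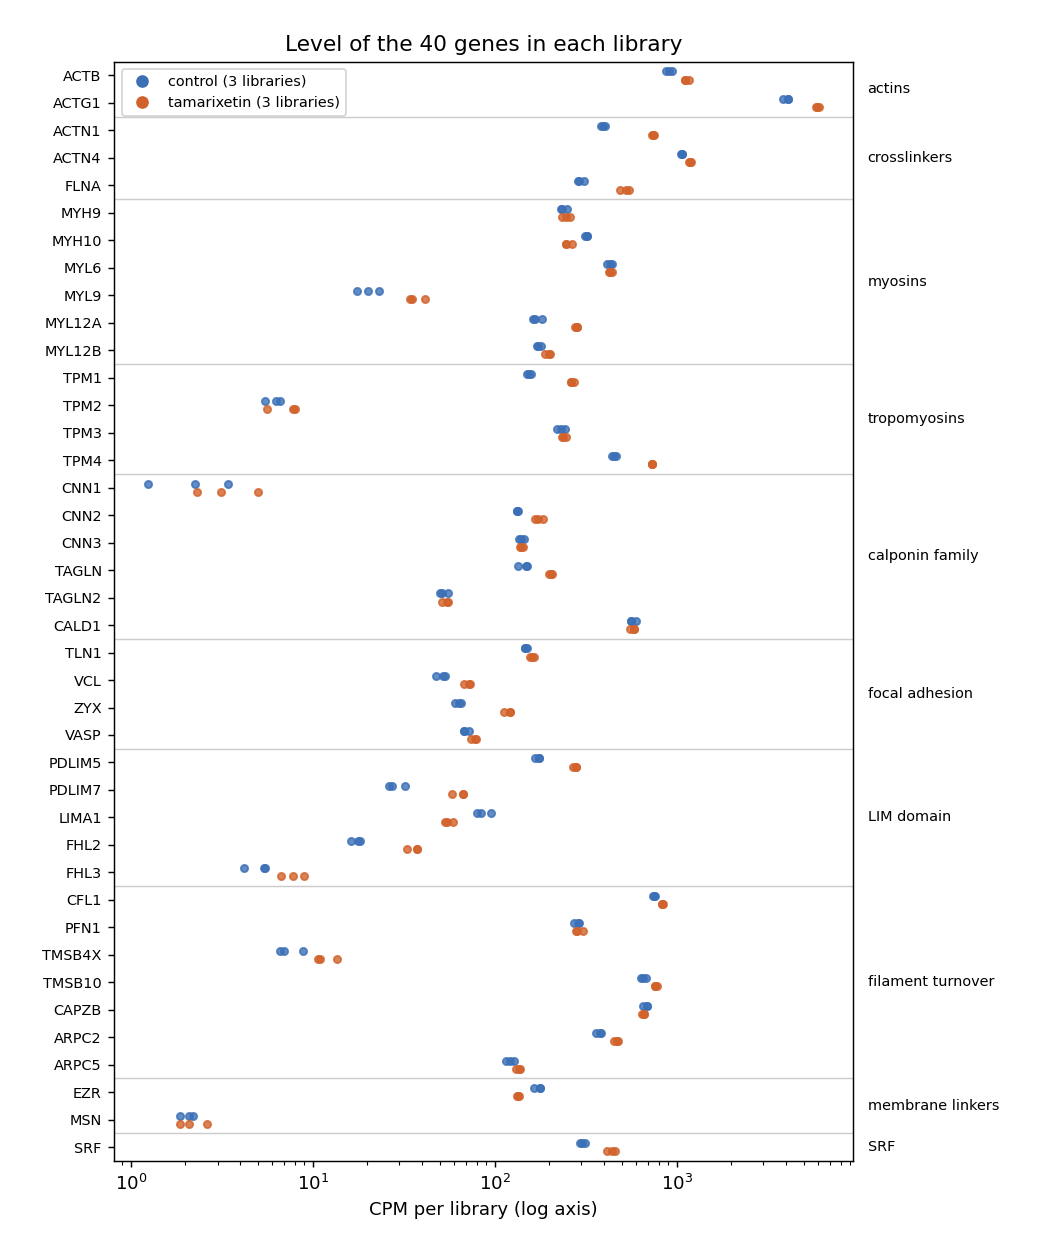
Level of each of the 40 genes (rows, grouped by role) in each library, as CPM on a log axis, with 3 control and 3 tamarixetin points per gene. The tamarixetin points of ACTN1, FLNA, TPM1, TPM4, ZYX and PDLIM7 lie apart from and to the right of the control points, and those of MYH10, LIMA1 and EZR to the left.

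Myosin genes split between the chains. Non-muscle myosin II is a motor of a pair of heavy chains with essential and regulatory light chains, and it pulls on actin filaments when the regulatory chain is phosphorylated. All 3 regulatory light chains rose, beside 22.4% of all genes tested. MYL9, the smooth muscle type regulatory chain, was low, at 20.1, 17.6 and 23.1 CPM in control and 35.3, 41.5 and 34.4 CPM with tamarixetin (log2 0.86, SE 0.0929). MYL12A, a non-muscle regulatory chain, moved from 162, 167 and 181 CPM to 276, 284 and 283 CPM (log2 0.72, SE 0.0419). Its close neighbour and near-copy MYL12B rose by 0.17 (SE 0.0432), from 174 ± 4.59 to 197 ± 6.74 CPM. Reads that the pair shares could be split between them. The essential light chain MYL6 did not pass the test (log2 0.0094, SE 0.0358, adjusted p = 0.860, edgeR with Benjamini-Hochberg adjustment), at 428 ± 14.1 and 431 ± 7.50 CPM.

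Of the heavy chains, MYH10, the IIB chain, fell by 0.33 on the log2 scale (SE 0.0388), from 322, 320 and 314 CPM in control to 248, 248 and 265 CPM in tamarixetin libraries. MYH9, the IIA chain, was at 238 ± 9.60 and 248 ± 12.3 CPM and did not pass the test (log2 0.052, adjusted p = 0.323, edgeR with Benjamini-Hochberg adjustment). The count ratio of MYH9 to MYH10 rose from 0.716, 0.736 and 0.793 to 0.951, 0.992 and 0.981. MYH10 overlaps NDEL1, whose counts were 21.2% of those of MYH10 and which rose by 0.49. The fall of MYH10 lost its call when tested against a fold of 1.2 (adjusted p = 0.0609, edgeR with Benjamini-Hochberg adjustment).

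Tropomyosins lie along the actin filament and set which proteins can reach it. TPM1 rose from 159, 151 and 154 CPM in control to 265, 273 and 264 CPM with tamarixetin, which is 0.79 on the log2 scale (SE 0.0418). TPM4 rose from 454, 466 and 440 CPM to 737, 735 and 729 CPM (log2 0.70, SE 0.0340). In both, every tamarixetin library was at least 1.5 times the highest control library. TPM3 stood at 233 ± 11.5 and 240 ± 7.15 CPM (log2 0.047, SE 0.0410) and TPM2 was scarce, at 6.15 ± 0.586 and 7.17 ± 1.33 CPM (log2 0.21, SE 0.177), and neither passed the test. The ratio of TPM3 to TPM4 counts fell from 0.511, 0.525 and 0.503 in control to 0.321, 0.338 and 0.323 in tamarixetin libraries. TPM1 kept close to TPM4, with a log2 difference in their ratio of 0.092 between the groups, and of 0.054 without control replicate 2. Each tropomyosin gene gives several transcripts, which the counts per gene do not separate.

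Within the calponin family and caldesmon, which bind along filaments and restrain myosin, 2 of 6 rose and none fell. This 33.3% is not far from the 22.4% higher among all genes tested, of which 21.3% were lower. TAGLN, transgelin or SM22, a common readout of SRF activity in smooth muscle, rose from 134, 151 and 148 CPM to 204, 206 and 198 CPM (log2 0.49, SE 0.0450). CNN2, calponin 2, rose from 134 ± 1.17 to 175 ± 8.88 CPM (log2 0.39, SE 0.0458). CNN3, TAGLN2 and CALD1 did not pass the test. CNN3 was at 140 ± 5.01 and 140 ± 2.83 CPM, CALD1, caldesmon, at 573 ± 20.1 and 573 ± 17.6 CPM, and TAGLN2 at 52.3 ± 2.50 and 54.1 ± 2.20 CPM. CNN1, the smooth muscle calponin, had 1.24, 3.42 and 2.26 CPM in control and 3.14, 2.32 and 5.03 CPM in tamarixetin libraries, and the groups overlapped. Its log2 fold change of 0.61 (SE 0.293) did not pass (adjusted p = 0.0847, edgeR with Benjamini-Hochberg adjustment), but passed without control replicate 2 (0.96, adjusted p = 0.0164) or without tamarixetin replicate 2 (0.83, adjusted p = 0.0280). The adjusted p of CNN1 ran from 0.0164 to 0.566 over the alternatives that tested it.

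**Figure D3:**
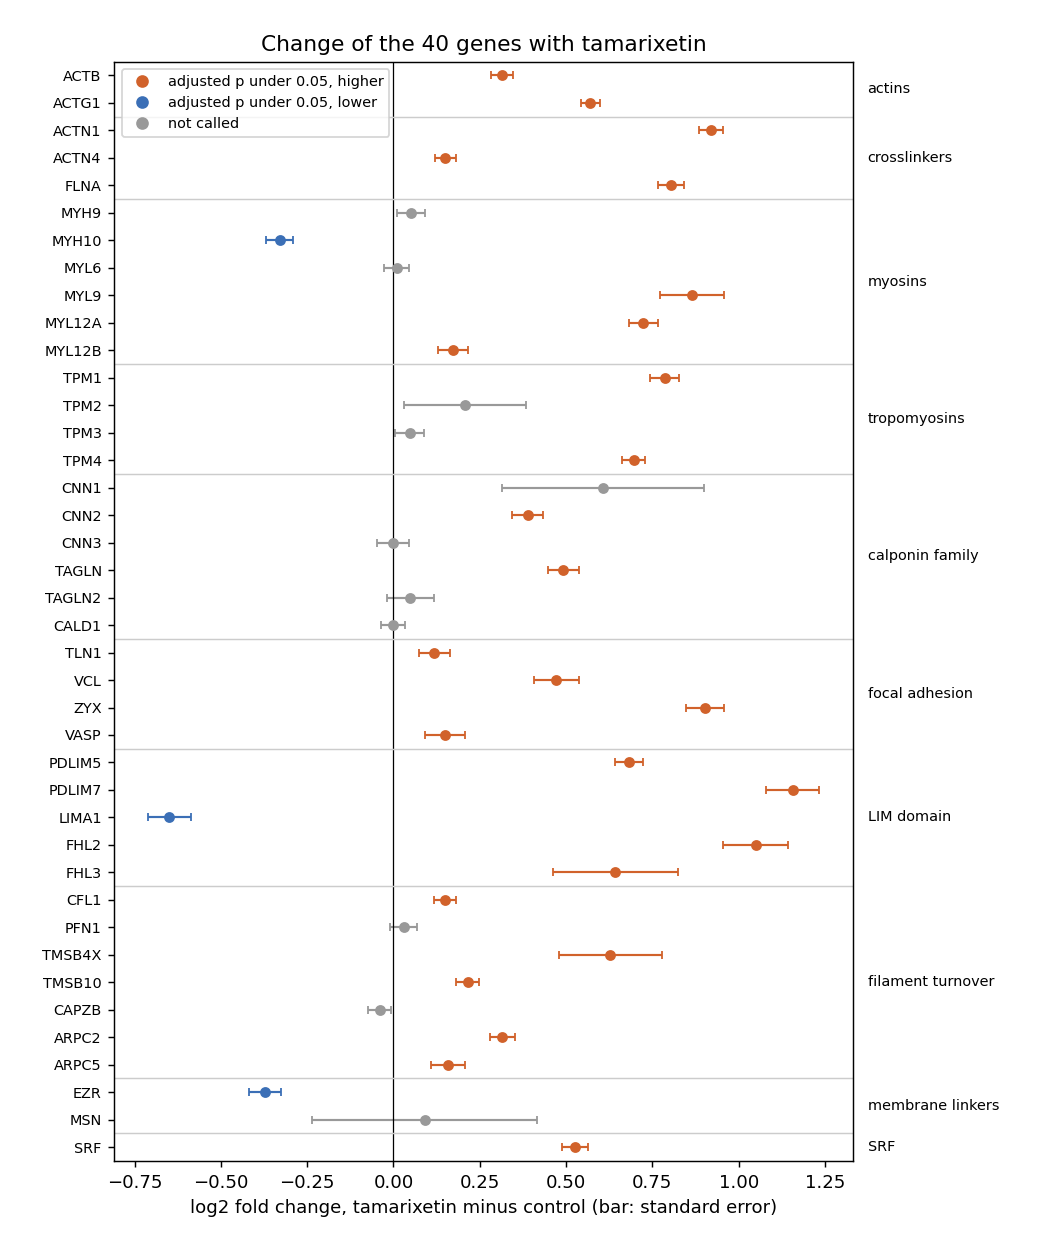
Log2 fold change of each of the 40 genes, tamarixetin minus control (horizontal axis), with its standard error as a bar and genes grouped by role. The 26 genes called higher lie right of 0, and LIMA1, EZR and MYH10 are the 3 called lower.

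All 4 focal adhesion genes rose, beside 22.4% of all genes tested. Focal adhesions are the plaques where integrins in the membrane are tied to the ends of filament bundles. ZYX, zyxin, which joins adhesions and stress fibres under tension, nearly doubled, from 60.9, 63.8 and 65.1 CPM in control to 112, 121 and 121 CPM with tamarixetin (log2 0.90, SE 0.0552, adjusted p = 1.15e-27, edgeR with Benjamini-Hochberg adjustment). VCL, vinculin, which locks talin to actin, went from 52.1, 47.6 and 53.5 CPM to 71.9, 73.5 and 67.5 CPM (log2 0.47, SE 0.0642). VCL overlaps AP3M1, which had 41.3% as many counts and a log2 fold change of -0.17. TLN1, talin, the direct link to integrins, rose by 0.12 (SE 0.0450, adjusted p = 0.0250), and VASP, which speeds filament growth, by 0.15 (SE 0.0588, adjusted p = 0.0314; both edgeR with Benjamini-Hochberg adjustment). Both of these small rises lost their call without control replicate 2 (adjusted p = 0.0691 for TLN1 and 0.114 for VASP), control replicate 3 (0.0798 and 0.107), tamarixetin replicate 1 (0.112 and 0.116) or tamarixetin replicate 2 (0.0632 and 0.0889), and with upper quartile scaling (0.125 and 0.108). VASP also lost it with DESeq2 (adjusted p = 0.0610) and with no filter on low counts (adjusted p = 0.0533).

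LIM domain proteins held the greatest changes of the set in either direction. PDLIM7, also called enigma, an adaptor on stress fibres (chromosome 5, 177483394 to 177497604), rose 2.23-fold. It was at 26.1, 27.4 and 32.2 CPM in control and 58.2, 67.0 and 67.1 CPM in tamarixetin libraries (log2 1.16, SE 0.0765). FHL2, a LIM protein that shuttles between adhesions and the nucleus and is known as an SRF target and partner (chromosome 2, 105357712 to 105438529), rose 2.07-fold, from 16.3, 17.7 and 18.1 CPM to 37.3, 37.3 and 33.0 CPM (log2 1.05, SE 0.0935). In both genes the tamarixetin libraries lay far above the controls. FHL2 overlaps C2orf49, which had more counts than FHL2 and rose by 0.34, less than FHL2 did.

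PDLIM5, a relative of PDLIM7, rose from 176, 166 and 176 CPM to 282, 271 and 280 CPM (log2 0.68, SE 0.0412). FHL3 was scarce, at 4.22, 5.42 and 5.45 CPM in control and 8.92, 7.82 and 6.68 CPM with tamarixetin, and rose by 0.64 (SE 0.181). LIMA1, also called EPLIN, which bundles and steadies filaments at cell junctions (chromosome 12, 50175788 to 50283520), went the other way. It fell from 95.6, 80.3 and 84.6 CPM in control to 54.5, 53.3 and 58.8 CPM in tamarixetin libraries, which is -0.65 on the log2 scale (SE 0.0620, adjusted p = 3.51e-16, edgeR with Benjamini-Hochberg adjustment). The lowest control library of LIMA1 was above its highest tamarixetin library.

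Genes of filament turnover rose in 5 of 7 and fell in none, and most of these rises were small. That is 71.4% higher, beside 22.4% higher and 21.3% lower among all genes tested. ARPC2, a core subunit of the Arp2/3 complex that starts branches, rose by 0.31 (SE 0.0362), from 374 ± 12.4 to 465 ± 12.5 CPM. ARPC5 of the same complex rose by 0.16 (SE 0.0484), a call that was lost without control replicate 1 (adjusted p = 0.0609, edgeR with Benjamini-Hochberg adjustment). CFL1, cofilin, which severs old filaments, rose by 0.15 (SE 0.0322) and TMSB10, a thymosin that holds monomers, by 0.22 (SE 0.0332), from 659 ± 23.2 to 765 ± 9.64 CPM. PFN1, profilin, at 284 ± 8.27 and 290 ± 15.1 CPM, and CAPZB, which caps filament ends, at 676 ± 21.9 and 657 ± 7.97 CPM, did not pass the test.

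TMSB4X, the other thymosin, is among the most abundant transcripts of many tissues but was scarce in these libraries. It had 6.98, 6.58 and 8.90 CPM in control and 10.6, 11 and 13.5 CPM with tamarixetin (log2 0.63, SE 0.150, adjusted p = 2.75e-04, edgeR with Benjamini-Hochberg adjustment). The ratio of TMSB4X to TMSB10 counts was 0.0110, 0.0100 and 0.0130 in control and 0.0141, 0.0142 and 0.0178 with tamarixetin. TMSB4X has near-identical processed copies in the genome, so reads can be lost in counting and its level is uncertain.

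The membrane linkers did not share the rise. EZR, ezrin, which ties filaments to the membrane of microvilli, fell by 0.37 on the log2 scale (SE 0.0456). Its libraries were at 178, 178 and 165 CPM in control and 132, 136 and 135 CPM with tamarixetin. MSN, moesin, was hardly expressed, at 2.05 ± 0.167 and 2.20 ± 0.399 CPM, and did not pass the test.

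In all 8 ratios between related genes the groups did not overlap. Taken gene by gene, 50.5% of all genes tested showed no overlap in either direction, and no such share is given for other pairs. The pairs are made of members chosen with earlier results of these data known, so this count describes them and does not test them. Where the fold changes of a pair differ, its ratio restates that difference. The log2 difference was 0.77 for ACTN1 to ACTN4, 0.55 for MYL12A to MYL12B, 0.43 for TMSB4X to TMSB10 and 0.38 for MYH9 to MYH10. It was -0.65 for TPM3 to TPM4, -0.39 for CNN3 to CNN2 and -0.26 for ACTB to ACTG1. Each of the 8 gave p = 0.1 in a two-sided exact permutation test (n = 3 per group), the smallest that 3 against 3 allows, and 0.1 after adjustment over the 8. The smallest of the 8 differences was that between TPM1 and TPM4.

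**Figure D4:**
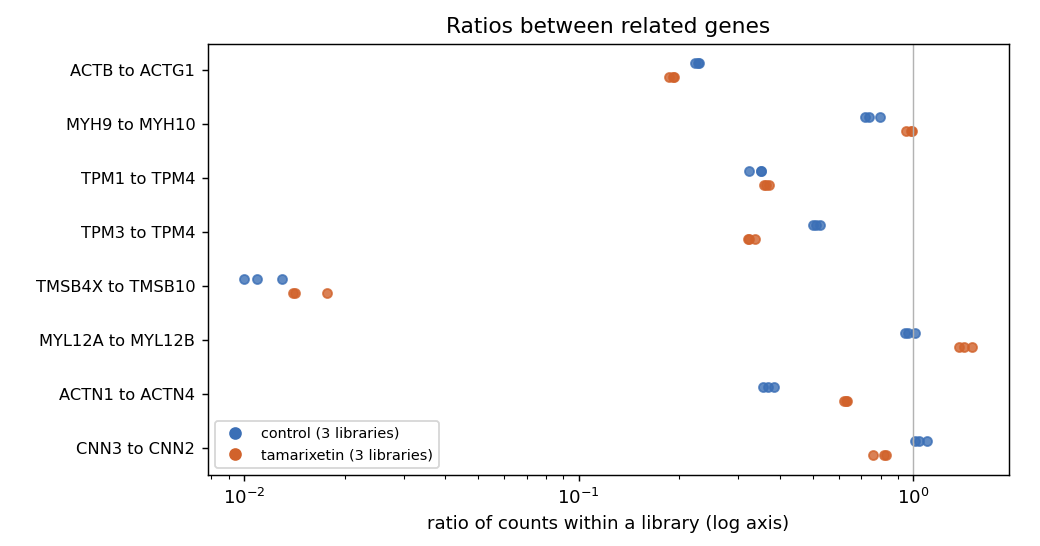
Ratio of the counts of 2 related genes within each library (horizontal axis, log scale) for 8 pairs, with 3 control and 3 tamarixetin points per pair; the vertical line marks equal counts. MYL12A to MYL12B moves from 0.947, 0.968 and 1.01 in control to between 1.37 and 1.5 with tamarixetin, and TPM3 to TPM4 moves the other way.

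The other genes of the pathway were read from 5 lists with 111 genes in all, of which 99 were tested, 41 rose and 18 fell. These are 41.4% and 18.2%, beside 22.4% higher and 21.3% lower among all genes tested. The lists were chosen with earlier results of these data known, so the shares describe them and do not test them. Among the 41 are FOS and FOSB, which are taken up with the early genes. Both passed the filter on low counts only through the tamarixetin libraries. Of the TCF partners of SRF, ELK4 rose by 0.44 (SE 0.115), and ELK1 (0.39, SE 0.201) and ELK3 (0.32, SE 0.161) did not pass the test. The partners MRTFA (0.15, SE 0.139) and MRTFB (0.17, SE 0.127) did not pass the test. MYLK, the kinase of the regulatory light chains, fell by 0.29 on the log2 scale.

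Among 30 other genes of filament assembly and turnover, 11 rose and 7 fell, with a median of 0.035. These are 36.7% and 23.3%, beside 22.4% higher and 21.3% lower among all genes tested. The cofilin relative DSTN rose from 379 ± 2.94 to 589 ± 5.53 CPM (log2 0.64), and WDR1 (0.59) and CAP1 (0.50), which help cofilin take filaments apart, rose with it. ENAH, a relative of VASP, rose by 0.56. Gelsolin, GSN, which also severs filaments, went the other way, from 159 ± 3.87 to 105 ± 1.56 CPM (-0.60), and the bundler FSCN1 fell by 0.37 on the log2 scale.

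Among 28 tested genes for other adhesion, linker and crosslinker proteins, 11 rose and 8 fell, with a median of 0.093. The shares were 39.3% and 28.6%, beside 22.4% and 21.3% of all genes tested. BCAR1, the p130Cas scaffold of focal adhesions, rose by 1.03, from 38.9 ± 4.37 to 79.9 ± 4.94 CPM, PDLIM2 by 0.81, the spectrin chain SPTBN1 by 0.69 and LPP, a relative of zyxin, by 0.64. PDLIM1, from 479 ± 11.1 to 304 ± 10.7 CPM (-0.66), and the second talin gene, TLN2 (-0.70), fell. PDLIM genes had members that rose and a member that fell. Of the talins TLN2 fell, and the small rise of TLN1 (0.12) lost its call under several alternatives given above.

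Of 13 further MRTF and SRF targets 8 were tested, 6 rose and 2 fell, with a median of 0.63. That is 75% higher and 25% lower, beside 22.4% and 21.3% of all genes tested. ACTA1, the actin of skeletal muscle, was expressed in these liver cells at 56.1 ± 1.21 CPM and rose to 148 ± 7.29 CPM (log2 1.40, SE 0.0540). TGFB1I1, also called HIC-5, a LIM protein of focal adhesions, rose from 5.09 ± 1.30 to 18.9 ± 0.540 CPM (log2 1.92). CCN1, a secreted matrix protein, rose by 2.26, ANKRD1 by 0.58, the filament protein NEXN by 0.58 and SMTN, smoothelin, by 0.68. The 2 that fell, named because they were the exceptions, were CCN2 (-0.20, SE 0.0432) and ACTA2, the actin of smooth muscle (-0.18, SE 0.0612). Without tamarixetin replicate 1 the call of ACTA2 was lost (adjusted p = 0.134, edgeR with Benjamini-Hochberg adjustment). ACTC1, ACTG2, MYH11, LMOD1 and SYNPO2 had too few counts to be tested. The actin genes themselves split, with ACTG1, ACTB and ACTA1 up and ACTA2 down.

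A list of 10 early genes with SRF sites, which answer to growth factor and stress signals, holds CCN1 too, and its members JUNB, EGR1, MCL1, NR4A1 and IER2 also rose. JUNB rose from 10.9, 9 and 13.2 CPM to 25.5, 21.6 and 24.6 CPM (log2 1.10), EGR1 from 5.52 ± 1.14 to 12.2 ± 1.13 CPM (log2 1.17) and MCL1 by 0.25. NR4A1 rose by 1.05 and IER2 by 0.33. FOS and FOSB passed the filter on low counts only through the tamarixetin libraries, so they could be tested only because they were high there, and no count or median of the tested genes is given for this list. They were close to the limit of detection, with 5, 2 and 2 counts of FOS in control and 15, 15 and 19 with tamarixetin, and 2, 0 and 3 counts of FOSB against 11, 15 and 12. EGR2 and EGR3 had too few counts to be tested. With no filter on low counts, 8 of the 10 were higher and none was lower. At that setting 12% of 23593 genes were higher and 11.3% lower.

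**Figure D5:**
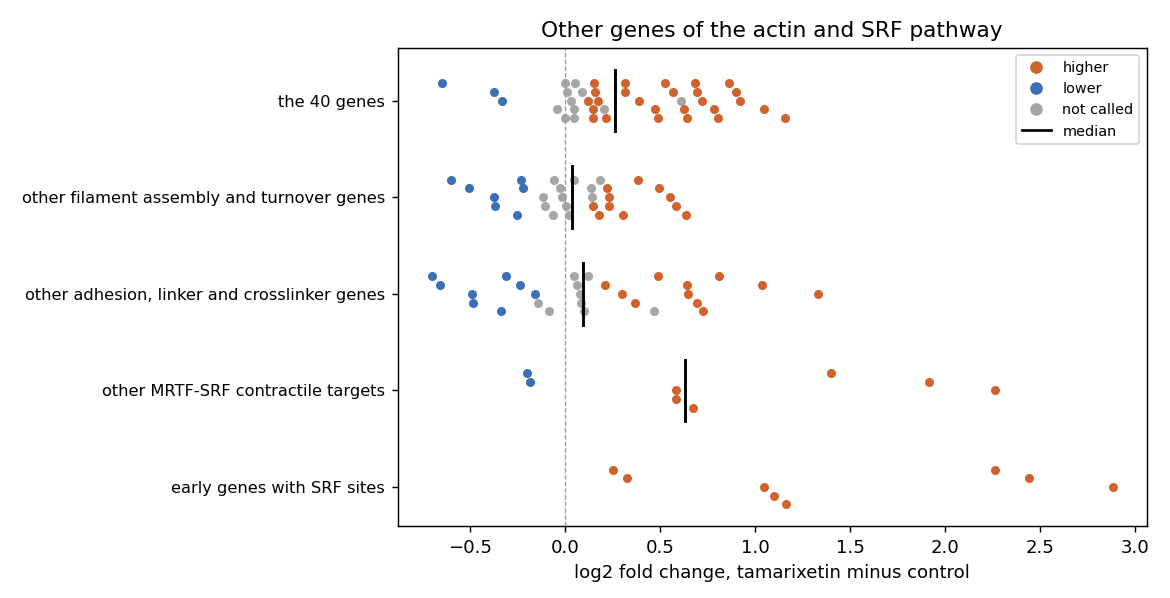
Log2 fold change (tamarixetin minus control, horizontal axis) of each tested gene of the set of 40 and of 4 other lists of the pathway, coloured by the call, with the median of each list but the early genes as a black bar. The medians of the other lists run from 0.035 for filament assembly and turnover to 0.63 for MRTF and SRF targets, and CCN1 appears in both lower lists.

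Over the 5 lists, 15 further genes carried a CArG box before a start site, and 10 of them were tested. Of these 10, ACTA1, TGFB1I1, SMTN, LPP, TES and EGR1 rose, MYLK fell, and ROCK2, RND3 and SVIL were not called. They are named because they hold a box, whatever their values. Beside these, 22.4% of all genes tested were higher and 21.3% lower. The stretches of ACTA1 and SMTN, an actin and a filament protein that rose and were outside the set of 40, and that of MYLK, which fell although it has a box, are shown in the same way as above. The MYLK stretch lies in an MYLK exon of GENCODE release 29. The ACTA1 stretch lies before the gene and the SMTN stretch inside the gene's span, and neither touches an exon.
ACTA1 (chr1:229434172-229434201, minus): tgcccaacacCCAAATATGGctcgagaagg
SMTN (chr22:31084942-31084971, plus): cggggccgggCCATATAAGGaaaagctagg
MYLK (chr3:123620623-123620652, minus): ataaaccatcCCTTTTATGGgagttgaagc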

How the data were processed

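The assay was 3′ end counting with the QuantSeq kit of Lexogen, per the labels' protocols. The submitters' processing notes name GRCh38 and the tools featureCounts 2.0.6, STAR 2.7.10b and fastp 0.23.1. For molecular identifiers, strand setting and annotation nothing is given in the sources used here, so reads of overlapping or antisense genes may not be separated. The values deposited by the authors are raw counts per gene symbol, 1 table per library.

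Genes were tested with edgeR 4.0.16 (R 4.3.3): filterByExpr, TMM factors, a quasi-likelihood F test of tamarixetin against control with group as the only term, and Benjamini-Hochberg adjustment over 13198 genes at 0.05. The SE of a log2 fold change was derived from it and its F value. CPM were computed from the counts with TMM-adjusted library sizes. On simulated data for this comparison (13035 genes) with 50 genes at each fold, the recovered share was 30% at 1.25-fold, 72% at 1.5-fold, 88% at 2-fold and 90% at 3-fold, beside 5 false calls. Far fewer genes were changed there than the 43.7% called in the real data. The adjustment is then stricter, so these shares do not carry over directly. Between replicates, chi-square per gene was 2.08 to 2.89, above counting noise.

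All 40 genes are named. Values in every library are given for those called with a log2 fold change of at least 0.4 in size, and for ACTB, ACTG1 and SRF, with a few more where a ratio or exception turns on them. Up to 6 genes per list with the smallest p are named. The count of 1 of the 5 lists of the pathway is not reported here. The members and lists were chosen with earlier results of these data known. Gene positions and promoter windows come from RefSeq (GRCh38.p14), which held all 40 symbols. Alternatives were other scalings, filters, tools (DESeq2 1.42.0, limma-voom 3.58.1), a fold minimum, the replicate block and leaving out each library.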

Additional observations from a re-analysis of the deposited data

How the results depend on the processing

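Of the 29 genes of the set called, all 29 kept their call and direction with DESeq2 size factors, library size alone, a minimum of 5 CPM in 3 libraries and limma-voom, 28 with no filter or with DESeq2, and 27 with upper quartile scaling. Leaving out each library in turn left 27 to 29 of the set called. Tested against a fold of 1.2 in place of no change, 19 of the 40 passed (17 higher, 2 lower), beside 2560 of all genes (1319 higher, 1241 lower) and 33 genes of the 5 other lists (26 higher, 7 lower). The median log2 fold change of all genes was 0.035 with library size alone and -0.035 with upper quartile scaling. Genes near 0 that never passed the test changed sign: MYL6 (-0.026 with upper quartile scaling, -0.020 to 0.027 leaving out libraries), PFN1 (-0.0060 with upper quartile scaling, -0.013 to 0.054), CNN3 (0.033 with library size alone, 0.00062 with no filter, -0.031 to 0.021), CALD1 (0.034 with library size alone, 0.0022 with no filter, 0.0018 with limma-voom, -0.019 to 0.027) and MSN (-0.052 to 0.20). The replicate numbers are shared by the groups. The deviations of libraries with the same number correlated by -0.0089, -0.041 and -0.020, so no shared effect of the number was seen. These values do not tell whether such cultures were handled together. With the replicate block 29 genes of the set were called, and 5735 of all genes against 5771. Within the set of 40, the fold changes of MSN, CNN1, FHL3, TPM2 and TMSB4X had the largest standard errors, 0.150 to 0.325, and low counts limit these genes most.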

Other observations

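Across the genome, 155 tested genes outside the set of 40 had a CArG box in the same window. Of these, 33.5% were higher and 21.9% lower, against 22.4% and 21.6% of 10165 tested genes with a window and no box. The median log2 fold change was 0.038 with a box and -0.0029 without. These shares are given as a description, with no test.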
